A study of Mus musculus with 36 samples.

Results

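Fibroblasts, the matrix-producing cells of connective tissue, were taken from single-cell RNA of mouse submandibular salivary glands. A cell barcode was kept with a minimum of 100 genes and a mitochondrial share under 15%. A kept barcode was called a fibroblast if it held a unique molecular identifier (UMI, 1 counted transcript) of at least 3 of the 6 genes Col1a1, Col1a2, Col3a1, Dcn, Lum and Pdgfra and none of the 4 genes Krt14, Krt5, Rgs5 and Pecam1, which mark basal epithelial cells, pericytes and endothelial cells. This rule found 453 fibroblasts among 25993 kept barcodes. They comprised 303 of 23346 barcodes from 26 Drop-seq glands and 150 of 2647 barcodes from 4 CITE-seq glands, with 2 to 45 cells per Drop-seq gland and 22 to 56 per CITE-seq gland.

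Drop-seq reads RNA from cells captured in droplets with barcoded beads, and CITE-seq also counts DNA-tagged antibodies bound to surface proteins of the same cells. The study followed how salivary gland tumors arise and compared control with double-mutant glands. Each library came from 1 gland of 1 mouse, with live cells sorted before capture and fixed in methanol for Drop-seq. Control mice carried K14-Cre and a Cre-inducible EYFP reporter (R26-EYFP). Double-mutant mice carried the same alleles together with a β-catenin gain-of-function and a Bmpr1a loss-of-function allele. The Krt14 promoter drives Cre in basal epithelial cells, so the mutations were not directed at fibroblasts, and UMI counts do not show whether an allele was recombined. Drop-seq covered postnatal days 40 (P40) and 90 (P90), with 6 control and 7 double-mutant glands at each age and males and females in all groups. The CITE-seq glands, all at P70 and from batch B15, were 1 male and 1 female control gland and 2 female double-mutant glands, so that sex differs with genotype in part.

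Fibroblasts build the extracellular matrix from fibrillar collagens, which they secrete as procollagen and cross-link outside the cell, and from small proteoglycans and microfibrils that bind to the collagen fibrils. Those around vessels and ducts, called adventitial, carry Pi16, Dpp4, Cd34 and Ly6a, and those activated in wounds and tumors can take on contractile genes such as Acta2. They also release growth factors, chemokines and complement proteins that act on epithelial and immune cells.

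Fibroblasts held few transcripts, which limits what can be read from each gland. The median fibroblast had 910 UMIs from 571 genes (862 UMIs in Drop-seq, 1004.5 in CITE-seq, range 116 to 20098), against 1504 UMIs in the other kept cells. The median mitochondrial share was 2.38%. Of the 453 cells, 14 held over 5000 UMIs and 3 held 2500 or more genes. No program for calling doublets was run, and the UMI sum of a gland can rest on few cells. The fibroblasts of a gland used for gene comparisons held 5185 to 59171 UMIs in Drop-seq and 21425 to 91433 in CITE-seq. The deepest fibroblast gave between 17.6% and 49.1% of a control gland's fibroblast UMIs and between 10.5% and 56.9% in double-mutant Drop-seq glands, the highest value being that of double-mutant P90 replicate 4, which the study left out of its sub-clustering for its ribosomal content. In CITE-seq it gave 5.83% to 7.75% in control and 11.1% to 22.0% in double-mutant glands. Of 25972 distinct barcode sequences, 21 occurred in more than 1 library. No fibroblast barcode was a fibroblast in 2 libraries, and 3 were also kept in another library. The double-mutant libraries P40 replicate 1 and P90 replicate 5 held sex-linked transcripts that go against the sex on their labels. They were used as labelled, and the results that rest on them were also computed without them.

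The selection genes chose the cells, so their values are a description and do not show how well they mark fibroblasts. Dcn, a proteoglycan that binds collagen fibrils, had a UMI in 96.2% of fibroblasts, 6.35% of pericytes and 2.06% of barcodes with a UMI of Ptprc, the leukocyte antigen CD45. Col1a2 and Col3a1, chains of the fibrillar collagens I and III, were found in 95.4% and 89.6% of fibroblasts and in 0.791% and 0.633% of Ptprc barcodes. Col1a1 was found in 81.0%, Lum in 78.4% and Pdgfra, the receptor for platelet-derived growth factor, in 39.96% of fibroblasts. Pdgfra was found in 0 of 126 pericytes and 0 of 1264 Ptprc barcodes, which allows shares of up to 2.38% and 0.237%. Barcodes called fibroblasts were left out of the Ptprc barcodes, and pericytes had to hold Rgs5, which the fibroblast rule excludes. Median depth was similar in these cells, with 896 UMIs in pericytes and 827.5 in Ptprc barcodes.

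Most fibroblasts lay well inside the limit of 3 genes. Of the 453, 57 held exactly 3 of the 6 genes, 94 held 4, 182 held 5 and 120 held all 6. Just outside, 67 barcodes held exactly 2 and no excluded gene. Per 10000 UMIs, barcodes with exactly 3 genes had 34.2 Dcn, 13.1 Col1a2 and 7.93 Col1a1 UMIs, and those with exactly 2 had 5.48, 1.72 and 0.940. The median was 770 UMIs just inside and 834 just outside, below the 910 of all fibroblasts. A further 30 barcodes held 3 or more of the genes together with an excluded one, most often Pecam1 (14) or Krt14 (10).

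The level of the selection genes varied several-fold between glands. Dcn had 15.3 to 163 UMIs per 10000 in the fibroblasts of the 5 control Drop-seq glands with at least 5 fibroblasts, and 44.5 to 184 in the 14 double-mutant glands. In CITE-seq it had 185 and 241 in control and 125 and 138 in double-mutant glands. Col3a1 had 14.1 to 102 in control and 13.3 to 161 in double-mutant Drop-seq glands, and 102 and 106 against 92.6 and 90.5 in CITE-seq. The genotypes overlapped for both genes in Drop-seq, and in CITE-seq both control glands were above both double-mutant glands for both genes.

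**Figure D1:**
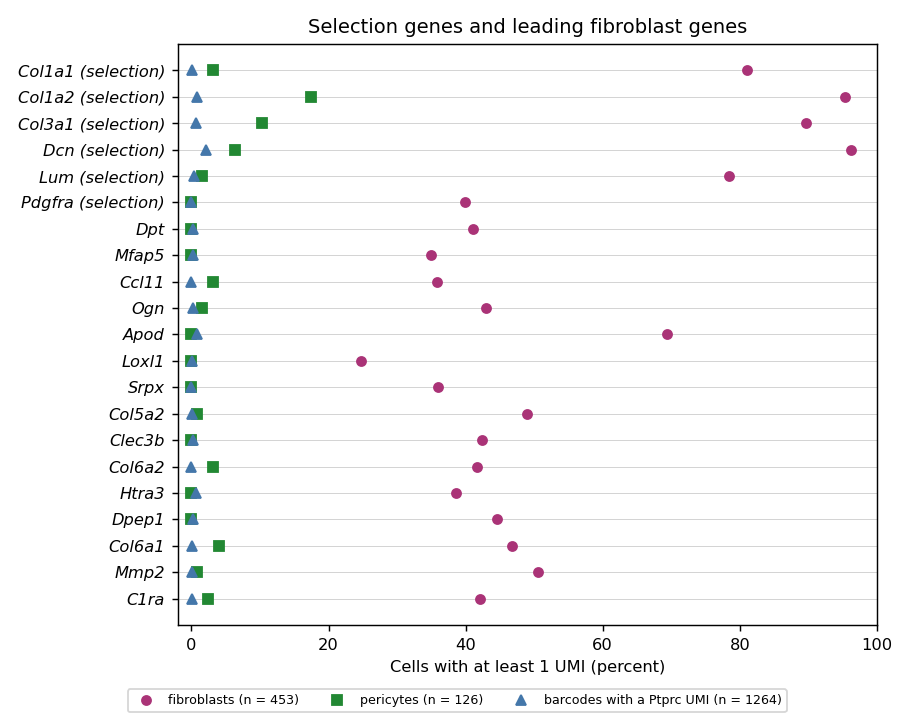
Percent of cells with at least 1 UMI (horizontal axis) of the 6 selection genes and of 15 further genes, in fibroblasts (n = 453), pericytes (n = 126) and barcodes with a Ptprc UMI (n = 1264). Dpt, Clec3b and Mfap5 lie at 41.1%, 42.4% and 34.9% in fibroblasts and at 0% in pericytes. Fibroblasts are left out of the Ptprc barcodes.

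Beyond the selection genes, fibroblast RNA was set apart from the other cells of the same gland by the genes of matrix assembly. UMIs were summed per gland over fibroblasts and over all other cells in the 19 Drop-seq glands with at least 5 fibroblasts. The cells were chosen by RNA of related genes, so folds and counts are given as a description and no p is read from them. Of 10638 genes, 1389 were higher (13.1%) and 1277 lower (12%) in fibroblasts past an adjusted p of 0.05 in edgeR's quasi-likelihood test, together 25.1%, at a median log2 difference of −0.04 over all genes. The split of calls rests on the scaling. With trimmed-mean (TMM) scaling 799 were higher and 5706 lower at a median of −1.12, and with DESeq2 2646 were higher and 931 lower at 0.34.

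The highest log2 difference was that of Dpt, which encodes dermatopontin, a small matrix protein that binds decorin. It had between 0.741 and 32.7 UMIs per 10000 in fibroblasts (median 4.61), a median of 0.00281 in other cells, and a log2 difference of 8.71 ± 0.35 (SE). Apod, a secreted lipid carrier, had 1.17 to 86.6 UMIs per 10000 in fibroblasts (median 29.0), a median of 0.0414 in other cells, and a difference of 8.13 ± 0.34. For both genes the fibroblasts of every gland were above the highest value in other cells. Mfap5, a microfibril protein, followed at 8.30 ± 0.35, Ccl11, the eosinophil chemokine eotaxin, at 8.18 ± 0.28 and Ogn, a leucine-rich proteoglycan, at 8.14 ± 0.32. The other genes among the 15 with the largest difference were Loxl1 (8.07), which cross-links elastin, Srpx (8.0), Col5a2 (7.93), Clec3b (7.89), Col6a2 (7.79), Htra3 (7.64), Dpep1 (7.58), Col6a1 (7.53), the gelatinase Mmp2 (7.5) and the complement protease C1ra (7.38).

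Read by role, nearly every class of matrix gene was higher in fibroblasts. All 15 collagens tested outside the selection genes were higher, at a median log2 difference of 5.24, as were all 7 leucine-rich proteoglycans (median 5.65) and all 13 elastic fibre and microfibril genes (4.64). Of 15 genes of collagen processing and cross-linking, 14 were higher (median 4.39) and P4hb was lower. P4hb is a protein disulfide isomerase of the secretory pathway that other secretory cells also use. All 15 matrix proteases and inhibitors were higher (4.45), as were 9 of 10 matricellular proteins (3.78). These shares stand beside the 13.1% of all genes that were higher.

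The genes for secreted signals were also among those higher in fibroblasts. All 6 complement genes tested were higher, at a median of 6.86. Of the cytokine list 13 of 18 genes were higher and 2 lower (median 2.62), and of 22 growth factors and receptors 14 were higher and 2 lower (median 2.70). Cxcl14, a chemokine, had 1.17 to 71.2 UMIs per 10000 (median 24.99), C3, the central complement protein, 0 to 40.8 (median 7.76) and Igf1, insulin-like growth factor 1, 0 to 22.2 (median 4.68). Their spread between glands was wide, and C3 and Igf1 had no UMI in the fibroblasts of 1 gland each. Of 19 genes of Wnt and BMP signaling 9 were higher and 1 lower (median 0.82).

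Several adventitial genes were frequent in these cells and contractile genes were rare. Of 14 adventitial genes tested, 10 were higher and none lower than in other cells (median 5.03). Pi16 had a UMI in 23.4% of Drop-seq fibroblasts (95% Wilson interval 19.01 to 28.5) and 42.0% of CITE-seq fibroblasts (34.4 to 50.002). Ly6a was found in 37.6% and 60%, Cd34 in 21.8% and 38.7%, and Dpp4 in 2.97% and 10% of the same cells. Each of these shares was lower in Drop-seq, where the median fibroblast also held fewer UMIs. Over both assays Dpp4 was found in 5.30% of fibroblasts and 6.27% of other cells, so it did not set fibroblasts apart. Acta2, the actin of smooth muscle and myofibroblasts, was found in 3.63% (2.04 to 6.38) and 3.33% (1.43 to 7.57), and 13 of the 19 Drop-seq glands had no Acta2 UMI in their fibroblasts. Of 12 myofibroblast genes 4 were higher and 1 lower (median 0.73). Mki67, a marker of dividing cells, was found in 1.65% and 2%, and of 6 proliferation genes tested none was higher and 3 were lower (median −1.27).

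Transcripts of other cell types were present in the fibroblast barcodes, and their part in the results was not tested. All 8 acinar markers, 9 of 10 duct markers, all 8 basal and tumor epithelial markers and all 11 immune markers were lower than in other cells, at medians of −4.04, −2.59, −3.53 and −2.02. Even so, 78.1% of fibroblasts held a UMI of at least 1 acinar marker (92.2% of other cells), 43.9% of a duct marker (79.1%), 32.2% of a basal marker (55.7%), 19.6% of an immune marker (28%) and 27.2% of a plasma cell marker (14.4%). T and NK cell markers were found in 0.662% of fibroblasts, with 4 of the 6 at 0. Endothelial markers were found in 13.5% (5.96% of other cells), pericyte markers in 16.8% (4.76%), Schwann cell markers in 7.95% (5.92%) and erythroid markers in 12.6% (5.34%). Spt1, a secreted protein of the acinar cells, had a UMI in 98.2% of fibroblasts, 99.2% of pericytes and 99.1% of Ptprc barcodes, about the same share in all 3.

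Pericytes, the mural cells of small vessels, are the stromal cells most like fibroblasts, and the contrast with them separated matrix from contractile genes. Pericytes were barcodes with a UMI of Rgs5 and of at least 1 other mural gene, and no barcode met both rules. Of 393 genes tested in 9 glands with at least 5 cells of each, 96 were higher (24.4%) and 48 lower (12.2%) in fibroblasts, together 36.6%, at a median of 0.27 over all genes. Without scaling beyond the library size 104 were higher and 29 lower at a median of 0.60. Both cell types were chosen by their RNA, so these too are descriptions. All values below are UMIs pooled over the 9 glands, of 200358 in fibroblasts and 124374 in pericytes, and a bound is set against the floor of 3 counts that a count of 0 allows.

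Apod had 780 UMIs in fibroblasts and none in pericytes, at least 161-fold higher. Spp1, which encodes the secreted phosphoprotein osteopontin, had 455 against none (at least 94.1-fold) and Cxcl14 354 against none (at least 73.2-fold). C3, Col15a1, Mmp2, Igf1, Dpt, Itm2a and Clec3b also had no pericyte UMI and were at least 19.5-fold to 36.0-fold higher. In the other direction Acta2 had 12 UMIs in fibroblasts and 215 in pericytes (28.9-fold lower, log2 difference −4.80 ± 0.54). Myl9, a light chain of smooth muscle myosin, had 11 against 181 (26.5-fold lower), and Map3k7cl had none against 30 (at least 16.1-fold lower). Mustn1 (4 against 79), Rgs4 (2 against 61), Pcp4l1 (2 against 49), Sncg (1 against 44), Olfr558 (1 against 43), Lmod1 (2 against 40) and Mcam (3 against 37) were lower as well.

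The lists showed the same division. All 7 collagens tested were higher in fibroblasts (median log2 difference 4.2), as were all 5 complement genes (3.11), all 5 adventitial genes (5.87) and all 3 cytokines. Of 7 matrix proteases and inhibitors 5 were higher and Timp3, an inhibitor of metalloproteases, was lower. Of 6 myofibroblast genes none was higher and 5 were lower (median −3.66). All 3 genes of MHC class I were higher, at a median of 1.27. Of 6 acinar genes none passed in either direction (median −1.42).

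Surface proteins were read from antibody tags in the 4 CITE-seq glands, a measurement that the RNA rule did not use. All 150 CITE-seq fibroblasts had tag counts, with 13896 to 48475 tag counts per gland. The median fibroblast held 752 and 377.5 tag counts in the male and the female control gland and 698 and 630 in double-mutant replicates 1 and 2. Other cells held more, with medians of 1572, 838.5, 942.5 and 965 in the same order. Tag levels here are parts of the total, so a higher level need not mean more counts per cell. Of 61 tags, 6 were higher (9.84%) and 16 lower (26.2%) on fibroblasts than on other cells past an adjusted p of 0.05 in edgeR's quasi-likelihood test with gland as a block, together 36.1%. With DESeq2 the split was 9 higher and 8 lower, and with TMM scaling 7 and 2. Of the 4 isotype control antibodies none passed, with log2 differences of 0.01 for AH_IgG and −0.19, −0.36 and −0.18 for mIgG1, mIgG2a and mIgG2b.

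The tag with the largest difference was Ly6A/E, the protein of the adventitial gene Ly6a. It made up 44.0 and 39.2 of every 1000 tag counts on fibroblasts of the male and the female control gland and 44.5 and 49.98 in double-mutant replicates 1 and 2, against 4.78, 5.27, 7.03 and 6.06 on other cells. Every gland's fibroblasts were above the other cells of all glands (log2 difference 2.95 ± 0.17, adjusted p = 0.000276 from edgeR). A single cell gave 59.4% of the Ly6A/E counts of the female control gland. The tag does not single out fibroblasts, since barcodes with a Pecam1 UMI had 50.7, 76.6, 30.03 and 9.21 per 1000 in the same glands.

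CD29, the integrin β1 that binds collagen and fibronectin, had 112, 63.3, 79.8 and 119 per 1000 on fibroblasts in the same order and 15.7, 22.8, 18.4 and 14.2 on other cells (2.38 ± 0.33, adjusted p = 0.0112 from edgeR). The 2 sets did not overlap, and Pecam1 barcodes reached 130 to 197. Ly6C had 13.9, 12, 9.35 and 7.23 against 4.46, 4.0, 5.36 and 4.01, again without overlap (1.22 ± 0.20, adjusted p = 0.0112 from edgeR). Pecam1 barcodes had more Ly6C than fibroblasts in each gland, at 94.6, 112, 56.9 and 21.2 per 1000. CD38, an ectoenzyme, had 16.4, 13.4, 30.2 and 27.5 against 10.7, 8.65, 16.1 and 15.4, higher on fibroblasts within each gland (0.75 ± 0.13, adjusted p = 0.0112 from edgeR). Its RNA was found in 1.33% of fibroblasts and 0.881% of other cells, whereas Ly6a RNA was found in 60% and 9.49% and Itgb1 RNA, for CD29, in 42.7% and 24.4%.

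CD54, the adhesion molecule encoded by Icam1, had 9.40 and 8.35 per 1000 on control fibroblasts and 28.4 and 39.5 on double-mutant fibroblasts, against 5.22, 6.19, 10.01 and 6.5 on other cells (1.35 ± 0.38, adjusted p = 0.0457 from edgeR). It was higher on fibroblasts within each gland, with control fibroblasts close to the other cells. Pecam1 barcodes had 23.1 and 62.3 CD54 counts per 1000 in control glands and 16.1 and 10.7 in double-mutant glands. Notch2 was also higher (0.49 ± 0.14, adjusted p = 0.0457 from edgeR). CD34 had 1.97, 17.6, 2.25 and 2.37 against 2.38, 2.0, 2.38 and 2.22, so that only the female control gland was high, where 1 cell gave 86.1% of the counts (0.66 ± 0.65, adjusted p = 0.445 from edgeR). Its RNA was found in 38.7% of fibroblasts and 1.08% of other cells.

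The tags of MHC class II and of some leukocyte proteins were lower on fibroblasts, while others did not pass. Those not passing include CD74 (0.11 ± 0.33, adjusted p = 0.822 from edgeR) and CD172a (−0.50 ± 0.24, adjusted p = 0.149 from edgeR). CD69 (0.34 ± 0.27) and Ly6G (−0.19 ± 0.19) did not pass either. MHC class II had 19.3, 50.4, 15.9 and 12.7 per 1000 on fibroblasts and 69.98, 123, 206 and 123 on other cells, lower in every gland (−2.53 ± 0.49, adjusted p = 0.0155 from edgeR). CD11b, the integrin αM of myeloid cells, had 0.519, 1.58, 3.65 and 1.13 against 1.88, 3.48, 8.41 and 6.70, lower within each gland (−1.68 ± 0.28, adjusted p = 0.0112 from edgeR). EpCAM, an epithelial adhesion molecule, had 61.8, 10.5, 5.01 and 10.7 against 12.8, 15.8, 11 and 8.78 (0.17 ± 0.60, adjusted p = 0.840 from edgeR). The high value of the male control gland came to 87.0% from 1 cell, and Epcam RNA was found in 0.667% of fibroblasts and 27.3% of other cells. CD24 did not pass either (0.53 ± 0.37, adjusted p = 0.286 from edgeR). Among the other lower tags CD97, a leukocyte adhesion receptor, had the largest difference (−1.09 ± 0.24, adjusted p = 0.0223 from edgeR). Further lower tags, among them Notch1, CD11c, CD8, CD16/32, CD25, CD103, Nectin2 and XCR1, lay between −0.79 (Notch1) and −0.38 (XCR1). The isotype control mIgG2a lay at −0.36, near the XCR1 end of this range.

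**Figure D2:**
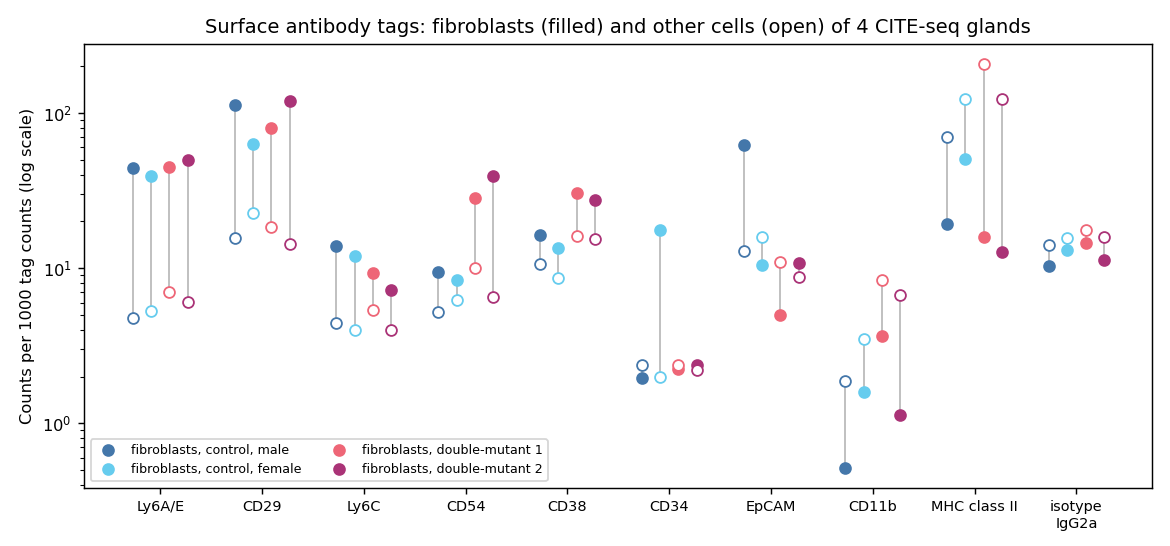
Counts of 10 antibody tags per 1000 tag counts (log axis) on fibroblasts (filled) and other cells (open) of each of the 4 CITE-seq glands. Fibroblasts lie above the other cells of all glands for Ly6A/E, CD29 and Ly6C, and below the other cells of all glands for MHC class II.

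Fibroblasts made up a larger share of the cells in double-mutant than in control glands. In Drop-seq, the share among kept barcodes was 0.174%, 0.643% and 1.16% (lowest, median and highest) in control glands at P40 and 0.276%, 0.384% and 0.779% at P90. In double-mutant glands it was 0.941%, 1.82% and 2.85% at P40 and 0.832%, 1.74% and 4.08% at P90. The genotypes overlapped at P40 and did not overlap at P90. The mean was 0.535% ± 0.309 (SD, n = 12) in control and 1.93% ± 0.933 (SD, n = 14) in double-mutant glands, a difference of 1.40 percentage points (two-sided permutation test, p = 2e-05). At P40 the means were 0.628% and 1.87% (two-sided exact permutation test, p = 0.00758), and at P90 0.441% and 1.99% (p = 0.00233, exact permutation test).

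The difference stood within batches and at matched depth. With glands permuted within the 5 batches that hold both genotypes it was 1.32 points (permutation p = 0.00047), and each of the 5 batches had a higher mean in double-mutant glands, from 0.499% against 0.941% in batch B14 to 0.174% against 2.05% in B13. With every barcode thinned to 500 UMIs, which left out 351 control and 2624 double-mutant barcodes, the means were 0.417% and 1.88% (permutation p = 6e-05). Without the 2 libraries whose sex-linked transcripts go against their labels it was 1.35 points. In CITE-seq the share was 3.06% and 3.51% in control and 8.38% and 8.83% in double-mutant glands, which did not overlap (two-sided exact permutation test, p = 0.333, the smallest that 2 against 2 allow).

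A share counts fibroblasts against all other cells of the gland, and the number of barcodes kept per library was set by capture. Per 100 barcodes with a Pecam1 UMI, which mark endothelial cells, there were 48.4 fibroblasts on average in control and 69.4 in double-mutant glands (permutation p = 0.206), a difference within the spread between glands. Among barcodes without keratin or Epcam transcripts the share was 1.38% in control and 3.79% in double-mutant glands.

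**Figure D3:**
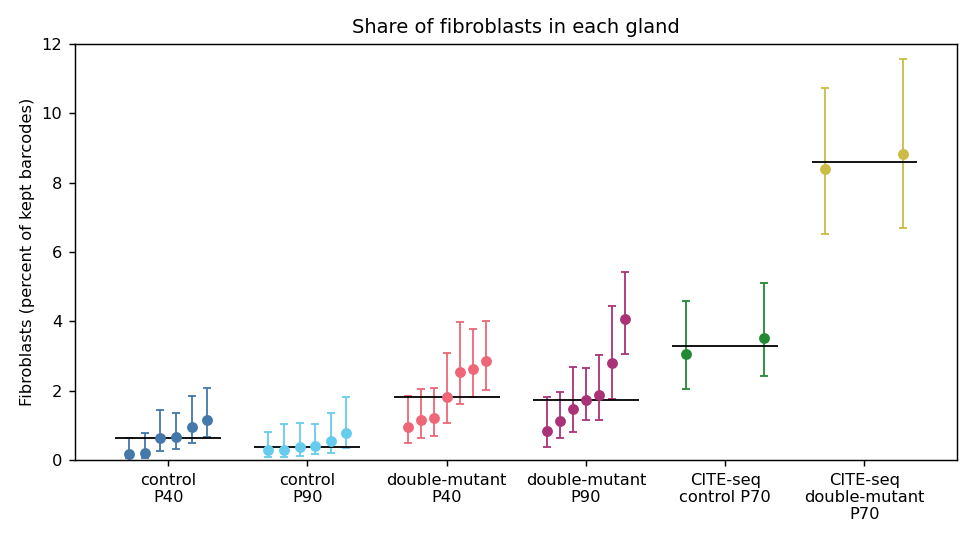
Fibroblasts as percent of kept barcodes (vertical axis) in each gland of the 4 Drop-seq and 2 CITE-seq groups. Points are glands with 95% Wilson intervals, which cover counting error only, and black lines are group medians. At P90 the control glands lie between 0.276% and 0.779% and all double-mutant glands lie at or above 0.832%.

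The share did not differ detectably between stages. In control glands the mean at P90 was 0.188 points below that at P40 (two-sided exact permutation test, p = 0.312), where stage and batch cannot be told apart, as P90 glands came from batches B7 to B9 and P40 glands from B12 to B14. In double-mutant glands it was 0.117 points above (exact permutation test, p = 0.826). The difference between genotypes was 0.305 points larger at P90 than at P40 (permutation test, p = 0.589).

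Gene expression within Drop-seq fibroblasts was compared between genotypes on UMIs summed per gland, with sex and stage as covariates. Of the control glands only 5 held at least 5 fibroblasts, 4 at P40 and 1 at P90, against all 14 double-mutant glands. Of 263 genes tested, 1 was lower (0.38%) and none was higher (0%) in double-mutant fibroblasts (edgeR's quasi-likelihood test, Benjamini-Hochberg adjustment). At an unadjusted p under 0.05 there were 35 genes, and DESeq2 called 2. In simulated data of this design, genes raised 4-fold were recovered in 88% of cases. The simulation gave every gene the same spread between glands, a chosen value that was not estimated from these glands. This recovery therefore need not hold in these data and does not carry over to genes that vary more.

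The gene that passed was Klk1, a kallikrein protease of duct cells. Per 10000 fibroblast UMIs it had 189 in control P90 replicate 3 and 277, 72.5, 86.3 and 23.4 in control P40 replicates 1, 2, 4 and 6, and 0, 4.14 and 160 (lowest, median and highest) in double-mutant glands. The groups overlapped through 1 double-mutant gland, and the log2 fold change was −3.95 ± 0.83 (adjusted p = 0.0250 from edgeR). The level in the other cells of the same control glands was 47.6, 280, 161, 93.5 and 150, and 1 cell gave between 55.7% and 98.0% of each control sum, so that few barcodes carried the control level. Klk1 also has close paralogs that share reads. With batch as a term 15 genes passed, 9 of them of the Klk1 family, and relative to the other cells of the gland 18 passed, 10 of that family, with Klk1 among both. Glands with at least 10 fibroblasts include 1 control gland, and in that fit Klk1 did not pass (−0.55, adjusted p = 0.999 from edgeR). With the number of fibroblasts as a covariate, with a stricter fibroblast rule, without control P90 replicate 3, or without control P40 replicate 4 or double-mutant P40 replicate 4, no gene passed.

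**Figure D4:**
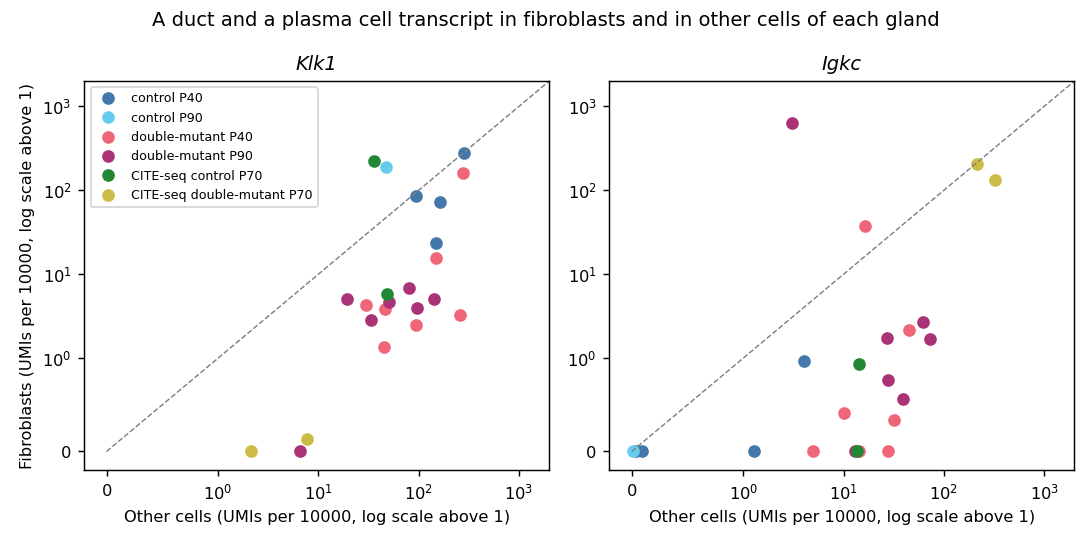
Klk1 (left) and Igkc (right) in fibroblasts (vertical axis) against the other cells of the same gland (horizontal axis), in UMIs per 10000, for each Drop-seq and CITE-seq gland used, on axes that are linear below 1 and log above. The dashed line marks equal levels, and the control Drop-seq glands lie between 23.4 and 277 Klk1 UMIs in fibroblasts.

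None of the other 9 genes with the lowest p passed the test. Ptn, a heparin-binding growth factor, had no UMI among the 76942 of control fibroblasts and 274 among the 311196 of double-mutant fibroblasts, at least 22.6-fold more. Per gland it ranged from 0 to 29.4 UMIs per 10000 with a median of 2.07 in double-mutant glands, so some of these also lacked it, beside a UMI in 3.73% of other cells (adjusted p = 0.223 from edgeR). In CITE-seq, Ptn was not absent from control fibroblasts. The female control gland had 10 Ptn UMIs among 22433, 9 of them in 1 cell. Double-mutant replicates 1 and 2 had 40 among 91433 and 21 among 75276. Igfbp4, which binds insulin-like growth factors, had 0, 11.6, 8.82, 0.587 and 2.6 in the Drop-seq control glands in the order above and 7.14, 14.3 and 44.4 (lowest, median and highest) in double-mutant glands (1.73 ± 0.59, adjusted p = 0.282 from edgeR). Its groups overlapped through control P40 replicates 1 and 2.

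Id3, a target of BMP signals, had 0, 2.91, 4.41, 0.294 and 2.6 in control and 0.837, 6.10 and 23.8 in double-mutant glands (1.67 ± 0.52, adjusted p = 0.223 from edgeR). Cald1, the actin-binding caldesmon, had 1.93, 6.79, 3.78, 1.47 and 1.74 against 2.22, 8.74 and 21.3 (1.32 ± 0.42, adjusted p = 0.223). Aebp1, a collagen-binding matrix protein, had 1.93, 2.91, 5.67, 0.587 and 2.6 against 2.92, 6.70 and 14.5 (1.02 ± 0.38, adjusted p = 0.282). All 3 overlapped between genotypes, with the median of the double-mutant glands above all 5 control glands. The glucocorticoid-induced Tsc22d3 (1.87 ± 0.65) was also higher on average, against a log2 fold change of −1.75 in CITE-seq (adjusted p = 0.0403 from edgeR), while Fxyd2 (−2.80 ± 0.85), Ppia (−1.47 ± 0.45) and Cox4i1 (−1.05 ± 0.39) were lower, none of them passing. Fxyd2, a subunit of the sodium pump, had 9.64, 25.2, 8.82, 2.05 and 0.868 in control glands and a median of 0.141 in double-mutant glands.

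By list, Klk1 among the duct markers was the only member that passed in the Drop-seq genotype comparison. Leaving out the selection gene Pdgfra, all 5 growth factor genes tested lay above 0 with a median log2 fold change of 1.43, 3 of them at an unadjusted p under 0.05, beside a median of 0.10 over all genes. The summed level of the whole list, Pdgfra included, was 9.98 to 61.1 UMIs per 10000 in control (median 40.5) and 51.3 to 197 in double-mutant glands (median 96.6), which overlapped. Matricellular proteins (6 of 6 above 0, median 0.78), complement (5 of 5, 0.76), cytokines (5 of 5, 0.82) and, without the selection genes, collagens (6 of 7, 0.39) and leucine-rich proteoglycans (2 of 2, 0.55) had medians on the same side. Of 5 adventitial genes 2 lay above 0 (median −0.37). All 6 acinar genes lay below 0 (median −1.06), and the summed acinar level in fibroblasts ranged from 21.4 to 2863 in control and 7.68 to 2054 in double-mutant glands. Spt1 alone took up 1889 and 3529 of every 10000 fibroblast UMIs in control P40 replicates 4 and 6, against 137 to 390 in the other control glands, and its part in these differences was not tested.

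CITE-seq gave 48 control and 102 double-mutant fibroblasts from 4 other mice and called more genes. Of 854 genes tested, 22 were higher (2.58%) and 29 lower (3.4%) in double-mutant fibroblasts, together 5.97%, at a median of 0.07 over all genes. This comparison rests on 2 glands against 2. Without either control gland 0 or 2 genes passed, and without double-mutant replicate 1 or 2 there were 9 and 78. In data simulated with the same chosen spread for every gene, 42% of genes raised 4-fold were recovered, which need not hold in these glands.

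Of the adventitial fibroblast genes, 4 of 12 were lower in the double-mutant CITE-seq glands. Igfbp6, which binds insulin-like growth factor 2, had 15.9 and 15.6 UMIs per 10000 in the male and the female control gland and 3.06 and 3.85 in double-mutant replicates 1 and 2 (log2 fold change −2.03 ± 0.34, adjusted p = 0.00800 from edgeR). Gsn, the actin-severing gelsolin, had 179 and 155 against 64.3 and 70.01 (−1.16 ± 0.23, adjusted p = 0.0227 from edgeR). Dpp4, a surface peptidase, had 4.67 and 3.12 against 0.437 and 0.531 (−2.79 ± 0.50, adjusted p = 0.0128 from edgeR). None of the 3 overlapped between genotypes. The Dpp4 levels rest on 10 and 7 UMIs in the control glands and 4 in each double-mutant gland. Together with Anxa3 (−2.01 ± 0.49), 4 of 12 adventitial genes fell, none rose, and 10 of 12 lay below 0 with a median of −0.54. The summed level of the list was 255 and 318 in control and 129 and 144 in double-mutant glands.

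Genes that act on the matrix fell in part and collagens did not pass. Timp3 had 14 and 8.47 UMIs per 10000 against 2.52 and 2.26 (−2.06 ± 0.42, adjusted p = 0.0227 from edgeR), and the protease Mmp3 4.2 and 4.90 against 1.09 and 0.930 (−1.98 ± 0.46, adjusted p = 0.0308 from edgeR). Pcolce2, an enhancer of procollagen processing, had 5.6 and 2.67 against 0.984 and 0.664 (−2.11 ± 0.53, adjusted p = 0.0403 from edgeR). All 3 were separated between genotypes. They were 2 of 13 matrix proteases and inhibitors (median −0.73) and 1 of 8 processing genes (−0.47). Leaving out the selection genes, none of 11 collagens (median −0.25), 3 leucine-rich proteoglycans (−0.59) or 8 elastic fibre genes (−0.46) passed.

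A growth factor, a growth factor binding protein and a chemokine rose in the double-mutant CITE-seq glands. Igfbp4 had 10.7 and 9.81 UMIs per 10000 in control and 22.5 and 23.0 in double-mutant fibroblasts (1.31 ± 0.29, adjusted p = 0.0303 from edgeR). Igf1 had 2.80 and 4.90 against 9.41 and 10.8 (1.53 ± 0.40, adjusted p = 0.0448 from edgeR). Ccl2, the monocyte chemokine MCP-1, had 0.933 and 1.78 against 5.25 and 5.98 (2.17 ± 0.55, adjusted p = 0.0408 from edgeR). Each was separated between genotypes. For Ccl2 a single barcode gave 37.5% and 51.1% of the UMIs in double-mutant replicates 1 and 2, and the control sums were 2 and 4 UMIs. Ccl2 also rose in the other cells of the same glands (2.18, adjusted p = 0.0451 from edgeR). Of 9 growth factor genes, Pdgfra left out, 2 rose and none fell (median 0.78), and of 7 cytokines 1 rose (0.71). Set against the change in other cells of the same glands, 6 genes passed in all, and the Igf1 difference was −0.46.

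**Figure D5:**
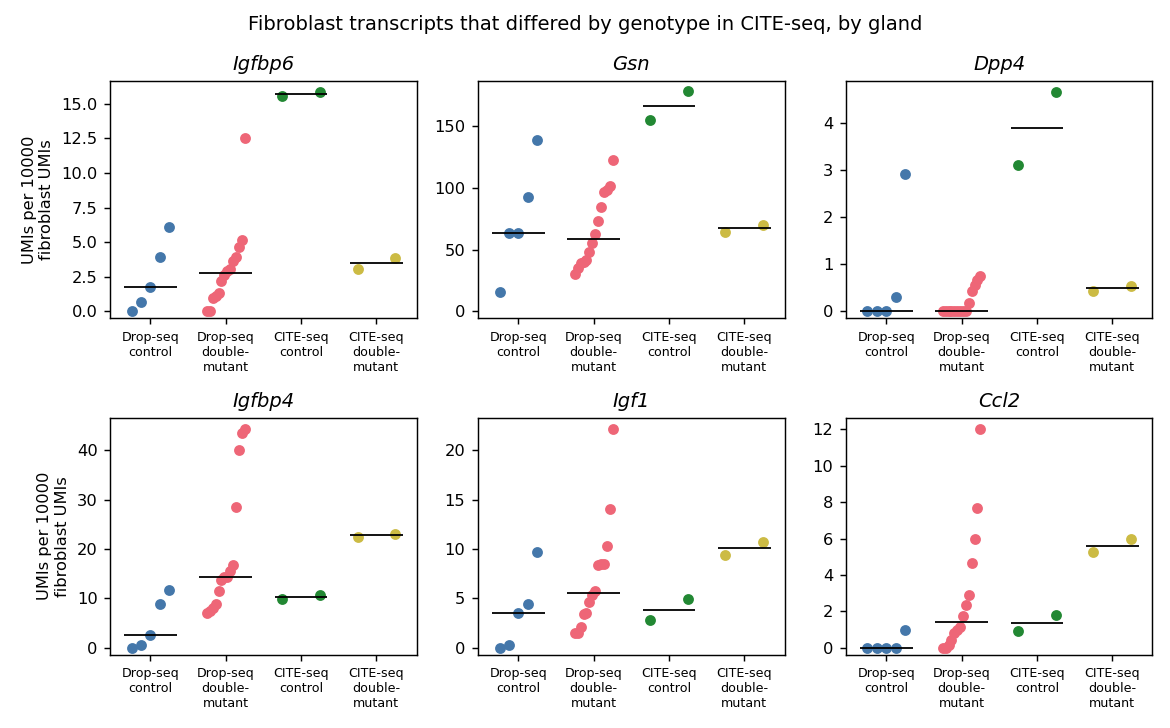
Igfbp6, Gsn, Dpp4, Igfbp4, Igf1 and Ccl2 in UMIs per 10000 fibroblast UMIs, 1 point per gland, for Drop-seq (5 control and 14 double-mutant glands) and CITE-seq (2 and 2), with lines at the medians. The CITE-seq genotypes are separated for all 6 genes, while in Drop-seq the control range of Gsn, 15.9 to 139, covers that of double-mutant glands, 30.4 to 123.

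The same genes did not pass in Drop-seq, in either direction. Igfbp6 ranged from 0 to 6.08 UMIs per 10000 in control and 0 to 12.6 in double-mutant Drop-seq fibroblasts, and Gsn from 15.9 to 139 and 30.4 to 123. In the Drop-seq fit without a filter on low counts, the log2 fold changes were 0.23 for Igfbp6, 0.13 for Gsn, −1.37 for Dpp4, 1.16 for Anxa3, 1.65 for Timp3, 0.55 for Mmp3, 0.67 for Pcolce2, and 2.12, 1.18 and 3.20 for Igfbp4, Igf1 and Ccl2. With the filter, 4 of these genes were tested, with −0.41 for Gsn, 1.11 for Timp3, 1.73 for Igfbp4 and 0.77 for Igf1. Gsn was thus of the opposite sign to CITE-seq without the filter and of the same sign with it, while Timp3 had the opposite sign in both. Without the filter the adjusted p of these 10 genes lay between 0.40 and 0.97 (edgeR). The experiments differ in age, cell fixation and batch, and the difference between them was not tested.

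Other genes called in CITE-seq fibroblasts are known from acinar, duct, plasma and red blood cells. Prol1, a secreted acinar protein, had 25.2 and 28.5 UMIs per 10000 in control and 3.28 and 4.52 in double-mutant fibroblasts (−2.63 ± 0.30, adjusted p = 0.000516 from edgeR), beside 421, 530, 179 and 100 in the other cells. Spt1 had 190 and 221 against 51.8 and 58.2 (−1.75 ± 0.23, adjusted p = 0.00174 from edgeR). The immunoglobulin light chain Igkc had 0.933 and 0 in control and 134 and 207 in double-mutant fibroblasts, beside 14.1, 13.7, 322 and 213 in other cells. Between 96.1% and 97.8% of the immunoglobulin UMIs of the double-mutant fibroblasts, Igkc, Igha and Jchain, came from 1 barcode in each gland. Klk1 had 220 in the male control gland, 99.2% of it from 1 barcode, and 5.80, 0 and 0.133 in the others, and its paralog Klk1b26 had 35.9, 4.90, 0 and 0. Hbb-bs, a globin, had 0, 0.446, 2.73 and 4.38, beside 0.840, 0.379, 39.5 and 59.8 in other cells.

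Of the 51 genes called, 2 belonged to the Klk1 family, 3 were immunoglobulin genes and 11 were pseudogenes or genomic clones. Among them Rps16-ps2 had 0.467 and 1.34 against 12.9 and 5.71 UMIs per 10000, and Rps19-ps6 0.933 and 0.892 against 15.5 and 5.18. Reads of such copies cannot be told apart from those of the parent genes, which leaves their levels uncertain. When barcodes with 2500 or more genes were left out, 3 genes passed: Prol1, Spt1 and Igfbp6, the last at −1.89 (adjusted p = 0.0251 from edgeR).

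Within double-mutant Drop-seq fibroblasts no gene passed the test between P90 and P40. Of 177 genes tested in 7 glands against 7 with sex as a covariate, none passed in edgeR (0%), 5 had an unadjusted p under 0.05, and DESeq2 called none, with 9 at that level. In data simulated with the same chosen spread for every gene, 100% of genes raised 4-fold were recovered. This need not hold in these glands and does not carry over to genes that vary more. The following were chosen after their values were seen. Calr, a calcium-binding chaperone, had 5.52, 7.77 and 15.6 UMIs per 10000 at P40 (lowest, median and highest) and 2.22, 5.02 and 9.22 at P90 (−0.90 ± 0.28, adjusted p = 0.863 from edgeR). C3 had 2.03, 6.56 and 29.9 against 3.45, 20.9 and 40.8 (1.45 ± 0.53), and the chemokine Cxcl12 1.56, 2.6 and 11.1 against 1.72, 11.7 and 28.1 (1.38 ± 0.50). All 3 overlapped between stages. The summed complement level was 21.0, 31.2 and 72.6 at P40 and 37.9, 74.2 and 101 at P90, with 4 of 4 genes tested above 0 (median 0.54, beside 0.05 over all genes). All 5 acinar genes tested lay below 0 at P90 (median −2.51), with a summed level of 7.68, 284 and 2054 at P40 and 34.1, 55.2 and 924 at P90.

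Bulk mRNA of whole glands (control, P70, n = 1, and double-mutant, P100, n = 1) also held the fibroblast genes. In counts scaled to the library total (CPM), Col1a1 had 25.003 in control and 25.6 in the double mutant, Col1a2 42.8 and 41.4, and Dcn 152 and 139. Col3a1 had 105 and 81.1, and Pdgfra 18.7 and 11.8. Igfbp4 had 23.1 and 42.9, Igfbp6 3.19 and 5.47, and Gsn 271 and 188. Lum had 18.3 and 19.5, Dpt 9.71 and 10.3, Pi16 10.3 and 14.5, and Dpp4 57.2 and 64.6. The genes thus went in both directions. With 1 library of each there is no error and no test. In whole tissue the number of fibroblasts and the RNA per fibroblast cannot be told apart. How these levels relate to the fibroblast share was not tested.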

How the data were processed

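Single-cell reads were aligned by the authors to mm10 (Drop-seq tools, STAR), who deposited unnormalized UMI counts per gene and barcode. For antibody tags the deposited counts came from CITEseq-count (whether as UMIs or reads is not given in the sources used here). Bulk counts were made by the authors with STAR and featureCounts 1.6.0. Human cells added to CITE-seq had been removed before deposit. Genes are named by symbol, and strand use in counting was not given in the sources used here, so overlapping genes cannot be told apart.

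The fibroblast rule, the 26 gene lists and the genes named were chosen with earlier results of these data known. The gland was the replicate, with p-values measuring the spread between glands. Shares were compared by two-sided permutation of glands (100000 resamples, exact within stages). UMIs were summed per gland with at least 5 fibroblasts and tested with edgeR 4.0.16 (quasi-likelihood, TMM scaling, filterByExpr, limma 3.58.1), with p-values adjusted by Benjamini-Hochberg and a threshold of 0.05. DESeq2 1.42.0 and a binomial mixed model (lme4 1.1.37) were alternatives. Against other cells, DESeq2's size factors replaced TMM in edgeR, since in simulated counts TMM gave 5502 false calls among 10648 genes and size factors 21. Tag counts were scaled to the library total. R 4.3.3, Python 3.11.15, numpy 2.4.6, pandas 2.3.3 and scipy 1.17.1 were used.

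Named genes were the 10 with the lowest p by genotype in Drop-seq (fewer than 10 passed), passing genes with the lowest p in CITE-seq and in each list, the 15 with the largest rise against other cells and the 10 in each direction against pericytes (20% detection required), leaving out selection genes and genomic clones. Replicate numbers did not pair the glands (correlations of 4 same-numbered pairs 0.0815 to 0.328). Intervals and floors cover counting error only. The result of 1 tag that passed is not reported here.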

Additional observations from a re-analysis of the deposited data

Results flagged for a closer look

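Among 34 groups of glands looked at for a gland that stands apart (Dixon's criterion, which flags about 1 in 20 groups by chance), 6 had such a gland, all of them the highest of the 7 double-mutant glands at P40. Values are UMIs per 10000 fibroblast UMIs. Replicate 1, whose sex-linked transcripts go against its label, had 160 Klk1 (next gland 15.6), 19.5 Fxyd2 (next 5.35) and 9.74 Cox4i1 (next 5.12). Replicate 5 had 21.3 Cald1 (next 9.88) and 44.4 Igfbp4 (next 15.6). Replicate 2 had 23.8 Id3 (next 7.61).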

How the results depend on the processing

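The rise of the fibroblast share in double-mutant glands kept its direction under every alternative run, with a difference of 1.23 to 1.48 points without any 1 gland and a mixed-model log odds of 1.32 ± 0.212. Its test was lost only per 100 Pecam1 barcodes (21.0, permutation p = 0.206). The stage difference in control glands was −0.278 to −0.0805 without any 1 gland and 0.0810 under the strict fibroblast rule, and that in double-mutant glands −0.231 to 0.310. The number of genes called by genotype in Drop-seq moved with most choices: 2 with DESeq2, 13 in glands with at least 10 fibroblasts (1 control gland, assumed to vary like the others; Klk1 was not among them, Fxyd2 turned to 0.21 and Cox4i1 to 0.10), 15 with batch as a term, 0 with the number of cells as a covariate, 21 without a filter, 0 with the strict rule, 3 without the 2 libraries that go against their sex labels, 0 to 2 without 1 gland, and, chosen after seeing the data, 8 with the CITE-seq glands and 18 relative to other cells. With the replicate block 20 genes were called by genotype and 3 by stage; in no control gland was the same-numbered gland the closest. Stage gave 11 genes without a filter. In CITE-seq, 21 genes were called with DESeq2, 3 under 2500 genes, 112 without a filter, 0 to 78 without 1 gland and, chosen after seeing the data, 6 relative to other cells, where Igf1 (−0.46), Hbb-bs (−1.58) and Spt1 (0.89) changed sign. TMM called 6505 genes against other cells, and no filter gave 288 against pericytes. Of tags, 9 were called with TMM and 10 to 17 without 1 gland (10 without double-mutant replicate 2, 13 without replicate 1, 17 and 15 without the male and female control). Those that changed sign were CD34 (−0.0798 to 1.002 without 1 gland, negative without the female control), EpCAM (−0.47 to 0.64), AH_IgG (−0.13 to 0.27), mIgG1 (0.0753 with DESeq2, 0.11 with TMM) and mIgG2b (0.0835 and 0.12). The cause of these moves was not tested. Genotype by stage was not fitted for genes, as only 1 control gland at P90 held enough fibroblasts. Depth limits the rest, as 2 to 45 fibroblasts per Drop-seq gland left 263 of the genes for the genotype test.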

Other observations

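The CD54 tag on CITE-seq fibroblasts had 9.40 and 8.35 counts per 1000 in control and 28.4 and 39.5 in double-mutant glands, while Icam1 RNA was found in 12% of all CITE-seq fibroblasts and 5.29% of other cells. The genotype difference of tags was not tested. Plasma cell transcripts summed to 0 to 0.971 UMIs per 10000 in control Drop-seq fibroblasts and 0 to 1215 (median 3.02) in double-mutant ones, and to 0 to 0.933 and 280 to 396 in CITE-seq.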
